A study of Mus musculus with 8 samples.

Results

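Genes of cholesterol synthesis, uptake and export were followed by RNA sequencing (RNA-seq) in mouse embryonic fibroblasts (MEFs) grown on stiff or soft substrate. A list of 31 genes was named and ordered by step, and the members were the rows of the deposited expression table that carry a listed symbol. Of these, 30 were listed among 12528 genes, and Abcg1 was not analysed here. The 4 groups were WT MEFs on stiff polyacrylamide hydrogel, WT MEFs on soft hydrogel, Cav1KO MEFs on stiff hydrogel and Cav1KO MEFs on soft hydrogel, with 2 libraries in each. Cav1KO cells lack caveolin-1, the protein that coats caveolae. Both genotypes came from littermate mice and were immortalized lines, and all cells were plated at low confluence and lysed for RNA 24 h after seeding. The lines are a model with 1 origin per genotype as far as the sources used here state, so a difference between genotypes cannot be told apart from a difference between lines. No source says whether the 2 libraries of a group came from separate cultures, and the p-values therefore measure only the spread between these libraries, which may be technical.

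Cholesterol is built from acetyl-CoA in stages. Acetyl-CoA is first condensed to mevalonate, mevalonate is phosphorylated and decarboxylated to isoprene units, these are joined to farnesyl diphosphate and then squalene, and squalene is oxidised, closed into lanosterol and trimmed to cholesterol in the endoplasmic reticulum. The pathway is controlled by SREBP transcription factors (encoded by Srebf1 and Srebf2), which the escort protein Scap carries to the Golgi for cleavage when membrane sterol is low, whereas the Insig proteins hold them back when sterol is high. Sterol that arrives with lipoproteins leaves the lysosome through Npc2 and Npc1, is stored as ester by Soat1, or is exported by Abca1, a gene known to be driven by the oxysterol receptor LXR. Caveolae are membrane pits rich in cholesterol, and caveolin-1 binds it.

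SREBP factors are known to act at promoters together with NF-Y and Sp1, and the promoter sequences of 6 of the 8 enzymes on which the results below turn are therefore shown, with that of Abca1 beside them as a gene that moved differently. Fdps and Fdft1 belong to the same 8 enzymes, and no sequence is printed for them. Each sequence holds the 250 bases before the annotated start from RefSeq (GRCm38.p6), read 5′ to 3′ on the gene's strand. Capitals mark the letters CCAAT (NF-Y), GGGCGG (Sp1) and TCACNCCAC (a sterol regulatory element), each searched on both strands so that the reverse complement is in capitals too, and no marked stretch overlapped another in these 7 windows. Abca1 held 0 CCAAT, but Npc2, which also fell on stiff in both genotypes, held 2 in its 250 bases. Insig2, which fell in both too, held 3 in a single window and 0 in its others. Whether CCAAT goes with the way a member moved was not tested. The coordinates are chr13:119690101-119690350 (plus strand) for Hmgcs1, chr8:122443423-122443672 (minus strand) for Mvd, chr13:8885356-8885605 (plus strand) for Idi1, chr5:4104698-4104947 (minus strand) for Cyp51, chr8:64733579-64733828 (minus strand) for Msmo1, chrX:72918271-72918520 (plus strand) for Nsdhl and chr4:53159896-53160145 (minus strand) for Abca1.
Hmgcs1: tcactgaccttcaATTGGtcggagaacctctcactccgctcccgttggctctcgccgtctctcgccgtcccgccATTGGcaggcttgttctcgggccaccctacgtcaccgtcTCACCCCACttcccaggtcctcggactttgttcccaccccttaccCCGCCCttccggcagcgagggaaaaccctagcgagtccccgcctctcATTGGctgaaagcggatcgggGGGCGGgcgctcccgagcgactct
Mvd: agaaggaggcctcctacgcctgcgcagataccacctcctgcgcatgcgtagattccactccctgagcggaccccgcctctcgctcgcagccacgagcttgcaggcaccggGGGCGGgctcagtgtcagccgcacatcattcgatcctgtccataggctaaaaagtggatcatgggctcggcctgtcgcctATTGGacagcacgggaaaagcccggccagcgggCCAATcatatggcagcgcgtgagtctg
Idi1: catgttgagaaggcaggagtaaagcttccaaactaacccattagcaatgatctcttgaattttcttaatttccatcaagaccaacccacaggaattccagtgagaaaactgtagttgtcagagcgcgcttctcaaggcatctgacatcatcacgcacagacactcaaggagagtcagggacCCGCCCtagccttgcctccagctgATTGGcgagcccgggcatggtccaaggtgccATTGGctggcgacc
Cyp51: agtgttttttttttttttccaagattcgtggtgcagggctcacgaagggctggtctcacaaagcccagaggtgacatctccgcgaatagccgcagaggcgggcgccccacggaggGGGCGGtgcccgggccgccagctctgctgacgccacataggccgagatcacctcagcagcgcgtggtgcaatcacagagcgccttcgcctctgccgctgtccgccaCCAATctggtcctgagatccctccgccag
Msmo1: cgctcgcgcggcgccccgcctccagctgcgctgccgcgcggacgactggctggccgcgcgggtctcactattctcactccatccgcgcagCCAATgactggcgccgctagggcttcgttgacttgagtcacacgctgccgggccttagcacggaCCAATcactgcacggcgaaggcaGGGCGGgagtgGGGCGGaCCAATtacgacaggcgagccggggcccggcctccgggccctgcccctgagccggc
Nsdhl: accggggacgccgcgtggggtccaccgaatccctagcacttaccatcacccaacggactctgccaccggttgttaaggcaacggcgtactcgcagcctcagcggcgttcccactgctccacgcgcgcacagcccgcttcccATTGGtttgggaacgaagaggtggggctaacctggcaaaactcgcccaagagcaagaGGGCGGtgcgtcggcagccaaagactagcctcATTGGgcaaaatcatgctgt
Abca1: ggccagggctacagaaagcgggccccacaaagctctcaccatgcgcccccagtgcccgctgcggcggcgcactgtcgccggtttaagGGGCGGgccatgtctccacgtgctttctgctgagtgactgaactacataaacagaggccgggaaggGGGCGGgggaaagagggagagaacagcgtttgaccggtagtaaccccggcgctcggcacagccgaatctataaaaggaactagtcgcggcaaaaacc

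In the wider window of 300 bases, which runs from 250 before to 50 after the start, 24 members had 32 annotated windows. CCAAT was present in 22 of the 32 (68.75%), against 37.4% of all 32851 promoter windows. GGGCGG was present in 26 (81.25%), against 35.7% of all windows. TCACNCCAC was found in 1 member window, that of Hmgcs1, 137 bases before its start, against 1.24% of all windows. Among the 16 synthesis enzymes with a window, CCAAT was present for 15, the exception being Acat2. Counted by gene in the same way, it was present for 41.06% of all 27025 genes with a window. These matches describe letters in a window and say nothing of binding.

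The libraries held from 17089836 to 19944952 reads, recovered from the deposited values as described under processing, and the member with the fewest reads in any library was Tm7sf2. Cav1, the deleted gene, ranged from 949.8 to 1157 CPM, the reads of a gene scaled to the size of its library, in WT, and did not exceed 0.411 CPM in any Cav1KO library. Fibroblast identity was visible in 7 of 9 markers (Col1a1, Col1a2, Col3a1, Pdgfra, Pdgfrb, Vim and Dcn), whose summed level ranged from 7480 to 7511 CPM in WT cells on stiff and 9484 to 9600 on soft, and from 3772 to 4555 in Cav1KO cells on stiff and 10213 to 10373 on soft. Thus the fibroblast sum was lowest in the Cav1KO stiff libraries, in which 12 of 19 synthesis enzymes had their highest mean, and its part in the results was not tested. None of the listed epithelial, endothelial or skeletal muscle markers was analysed here.

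Many members of the cholesterol pathway had less RNA on stiff substrate in WT cells and more RNA on stiff substrate in Cav1KO cells. In WT cells 15 of 30 members fell on stiff relative to soft substrate and 0 rose, against 26.3% of all genes tested that fell and 22.1% that rose (limma, adjusted p under 0.05 over 12494 genes). At an unadjusted p under 0.05 the same comparison gave 1 higher member (Scap), and edgeR and DESeq2 also gave 0 at an adjusted p under 0.05. In Cav1KO cells 19 members rose and 4 fell, against 27.9% and 28.2% of all genes. The median log2 change of the members was -0.18 in WT and 0.33 in Cav1KO, and that of all genes was -0.02 in both.

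Opposite calls in the 2 genotypes were found for 8 members, which were lower on stiff in WT and higher on stiff in Cav1KO: Hmgcs1, Mvd, Idi1, Fdps, Fdft1, Cyp51, Msmo1 and Nsdhl. Over all genes 65 (0.520%) had this combination of calls. All 8 were enzymes of synthesis. Another 11 members rose on stiff in Cav1KO with no call in WT, 3 fell in WT with no call in Cav1KO (Pmvk, Tm7sf2 and Insig1), 4 fell in both (Insig2, Npc1, Npc2 and Abca1), and 4 had no call in either (Ggps1, Ebp, Srebf1 and Scap). Of all 12494 genes tested, 1368 rose in Cav1KO with no call in WT and 1095 fell in WT with no call in Cav1KO. A further 2123 genes fell in both genotypes and 3716 had no call in either. The number with opposite calls rested on few libraries, since it was 4 without the first WT stiff or the first WT soft library and 5 without either Cav1KO soft library. Over all genes the number with this combination of calls also fell without each of these libraries. Hmgcs1, Mvd and Nsdhl kept both of their calls in every alternative run.

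**Figure D1:**
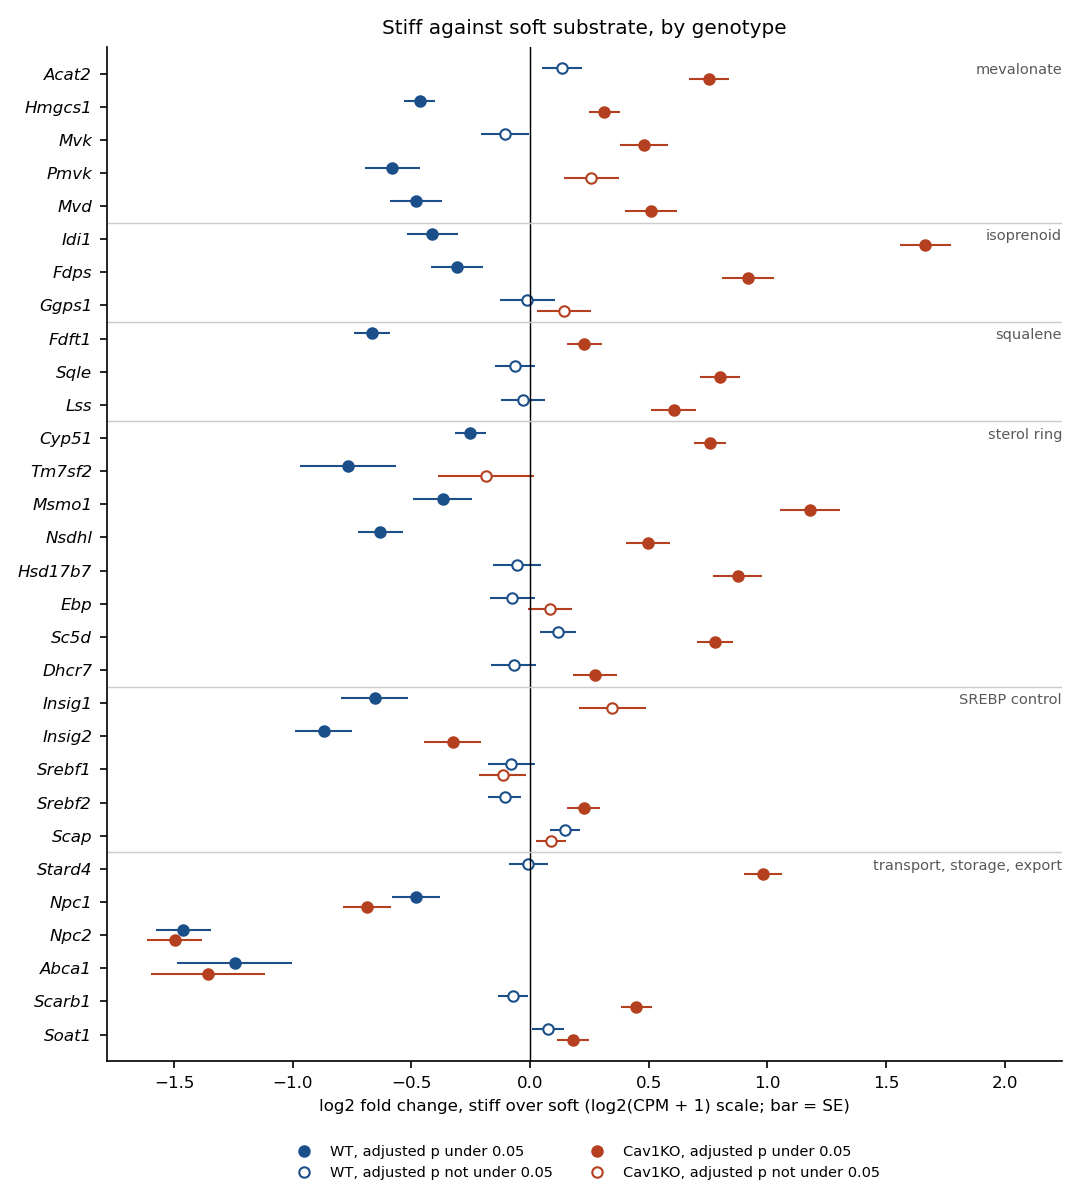
Log2 fold change of stiff over soft substrate (x axis, log2(CPM + 1) scale) for each of the 30 members (y axis, in pathway order), in WT (blue) and Cav1KO (red) cells. Bars are standard errors of the fit over 8 libraries, and filled points passed an adjusted p of 0.05. Among the synthesis enzymes red points lie to the right of blue points for all 19, whereas for Npc1, Npc2 and Abca1 both lie left of 0.

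The difference between the genotypes' responses was tested directly as an interaction, the stiff-over-soft change in WT minus that in Cav1KO. This difference was negative and passed the test for 18 of 30 members and was positive and passed for 0, against 6.0% and 4.47% of all genes. At an unadjusted p under 0.05 it was positive for 0 members, and edgeR and DESeq2 gave 0 at an adjusted p under 0.05. Its median was -0.63 over the members and -0.07 over all genes. All 19 synthesis enzymes had a negative interaction, and 15 of them passed. The count of 18 fell to 10 without the first WT stiff library, 10 without the first WT soft library, 9 without the first Cav1KO soft library and 8 without the second Cav1KO soft library. Over all genes the number that passed also fell without each of these libraries, both upward and downward. Hmgcs1, Idi1, Fdps, Fdft1, Cyp51, Msmo1, Nsdhl and Stard4 passed in every alternative run.

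Across the 4 groups the synthesis enzymes were most often lowest in Cav1KO cells on soft substrate. The group mean was lowest there for 13 of 19 enzymes, and for 10 of these both libraries lay below the other 6. It was highest in Cav1KO stiff for 12 enzymes, with both libraries above all others for 9. WT soft had the highest mean for the remaining 7, with both libraries above all others for 6. These 7 were Hmgcs1, Pmvk, Fdps, Ggps1, Fdft1, Tm7sf2 and Nsdhl. WT stiff had the lowest mean for 5 enzymes and the highest for 0. These counts were not made over all genes, so whether this order is particular to the enzymes was not tested.

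**Figure D2:**
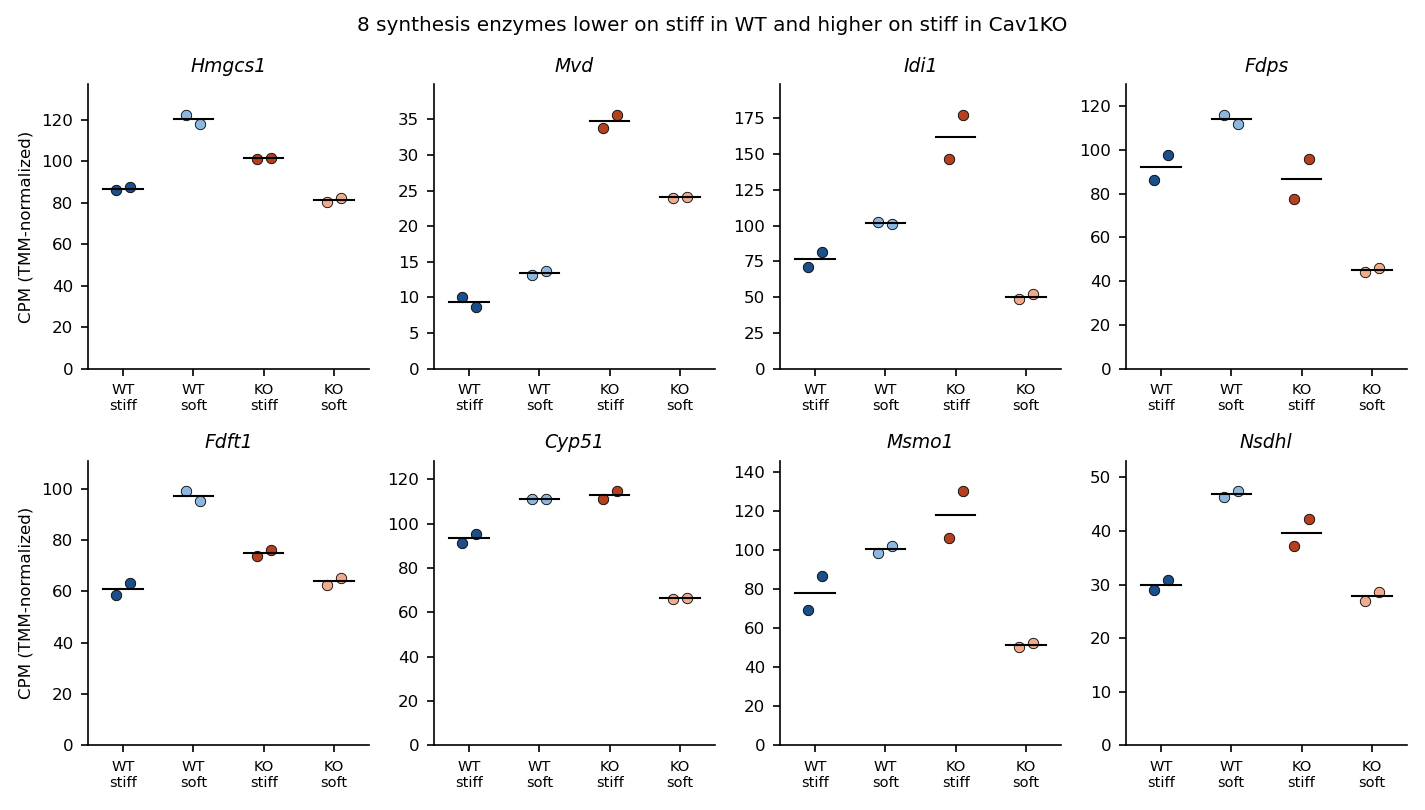
CPM (y axis, linear from 0) of the 8 enzymes with opposite calls, in the 2 libraries of each group (points) with their mean (line). In each panel the WT soft points lie above the WT stiff points and the Cav1KO stiff points above the Cav1KO soft points.

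The mevalonate arm turns acetyl-CoA into the first isoprene unit. Acat2, the cytosolic thiolase that condenses acetyl-CoA, was at 100.3 and 109.5 CPM in WT cells on stiff and 93.3 and 97.5 on soft, against 149 and 170.4 in Cav1KO cells on stiff and 93.5 and 94.8 on soft. Its Cav1KO stiff libraries stood above the other 6, and it rose on stiff in Cav1KO by a log2 change of 0.75 (SE 0.09, limma adjusted p = 0.000147). Acat2 shared 37.0% of its 60-base windows with its near copy Acat3 and 10.4% with Tcp1, also listed, so reads may have been split between these genes. The part of Acat3 and Tcp1 in the Acat2 values was not tested. Hmgcs1, the cytosolic HMG-CoA synthase, was at 86.1 and 87.6 CPM in WT cells on stiff and 122 and 118 on soft, against 101 and 102 in Cav1KO cells on stiff and 80.4 and 82.5 on soft. The groups did not overlap between substrates within either genotype, with log2 changes of -0.47 (SE 0.07, limma adjusted p = 0.000659) in WT and 0.31 (SE 0.07, limma adjusted p = 0.0038) in Cav1KO. Its interaction was -0.78 (SE 0.09, limma adjusted p = 0.00479).

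Mvk and Pmvk, the kinases that phosphorylate mevalonate in turn, had calls in different genotypes. Mvk was at 33.6 and 40.2 CPM in WT cells on stiff and 40.8 and 38.5 on soft, against 45.8 and 47.8 in Cav1KO cells on stiff and 33.2 and 33.3 on soft, so its WT libraries overlapped and its Cav1KO libraries did not. Its log2 change in Cav1KO was 0.48 (SE 0.10, limma adjusted p = 0.0038). Pmvk was at 13.4 and 13.6 CPM in WT cells on stiff and 21.6 and 19.8 on soft, against 13.1 and 14.4 in Cav1KO cells on stiff and 10.7 and 12.0 on soft, without overlap between substrates in either genotype, and it fell in WT by 0.58 on the log2 scale (SE 0.12, limma adjusted p = 0.00375). Mvd, the decarboxylase that closes this arm, was at 10.1 and 8.66 CPM in WT cells on stiff and 13.2 and 13.8 on soft, against 33.8 and 35.6 in Cav1KO cells on stiff and 24.0 and 24.1 on soft. Every Cav1KO library held more Mvd than every WT library, and within genotypes the change was -0.48 (SE 0.11, limma adjusted p = 0.00684) in WT and 0.51 (SE 0.11, limma adjusted p = 0.00408) in Cav1KO. The interaction passed for all 5 enzymes of this arm, from -0.59 for Mvk to -0.99 for Mvd. It no longer passed for Acat2 (-0.65 to -0.52), Mvk (-0.63 to -0.46) or Pmvk (-0.92 to -0.76) without any 1 of the first WT stiff, either WT soft, the second Cav1KO stiff or either Cav1KO soft library, nor for Mvd without the first (-0.99) or second (-0.996) Cav1KO soft library. Without a mean-variance trend the interaction of Acat2 and Mvk did not pass either.

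The isoprenoid step held the largest interaction and the largest rise among the 30 members, both of Idi1. Idi1, the isomerase that makes the second isoprene unit, was at 71.0 and 81.7 CPM in WT cells on stiff and 103 and 101 on soft, against 146 and 177 in Cav1KO cells on stiff and 48.5 and 51.8 on soft. No groups overlapped, and the order was Cav1KO stiff, WT soft, WT stiff and Cav1KO soft. Idi1 rose on stiff by 1.66 (SE 0.11, limma adjusted p = 1.48e-05) in Cav1KO and fell by 0.41 on the log2 scale (SE 0.11, limma adjusted p = 0.0129) in WT, with an interaction of -2.08 (SE 0.15, limma adjusted p = 0.00131). Pseudogene Gm13502, itself listed, shared 17.3% of the 60-base windows of Idi1. Fdps, farnesyl diphosphate synthase, was at 86.2 and 97.8 CPM in WT cells on stiff and 116 and 112 on soft, against 77.6 and 95.9 in Cav1KO cells on stiff and 44.2 and 46.1 on soft. Both Cav1KO soft libraries were below the other 6, whereas the stiff libraries of the 2 genotypes overlapped. Fdps rose on stiff in Cav1KO by 0.92 (SE 0.11, limma adjusted p = 0.000188), fell in WT by 0.31 on the log2 scale (SE 0.11, limma adjusted p = 0.0444), and had an interaction of -1.23 (SE 0.15, limma adjusted p = 0.00571). It shared 25.0% of its windows with other annotated genes, none of them listed.

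The WT calls of this step depended on single libraries. Idi1 no longer passed in WT without the first WT stiff (-0.31) or the first WT soft library (-0.40). Fdps no longer passed in WT without the first WT stiff (-0.22), the first WT soft (-0.28), the second WT soft (-0.33) or either Cav1KO soft library (-0.31), nor with median centring (-0.27), without the trend or with DESeq2. Ggps1, geranylgeranyl diphosphate synthase, which diverts isoprene units to protein prenylation, was at 25.3 and 26.1 CPM in WT cells on stiff and 26.6 and 25.2 on soft, against 18.5 and 15.6 in Cav1KO cells on stiff and 15.998 and 14.7 on soft. Its substrates overlapped in both genotypes and its genotypes did not overlap.

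All 3 enzymes that make and close squalene rose on stiff in Cav1KO, as did 27.9% of all genes tested. Fdft1, squalene synthase, was at 58.6 and 63.0 CPM in WT cells on stiff and 99.0 and 95.1 on soft, against 73.8 and 76.2 in Cav1KO cells on stiff and 62.6 and 65.2 on soft. Both WT soft libraries stood above the other 6, and Fdft1 fell on stiff in WT by 0.67 on the log2 scale (SE 0.07, limma adjusted p = 0.000226) and rose in Cav1KO by 0.23 (SE 0.07, limma adjusted p = 0.0291), with an interaction of -0.89 (SE 0.11, limma adjusted p = 0.00457). Ctsb, a lysosomal protease gene on the opposite strand, overlapped 18.3% of Fdft1's exon bases, the libraries did not keep strand, and the mean level of Ctsb was 293 CPM on stiff and 811 on soft in WT, and 311 on stiff and 1224 on soft in Cav1KO. Ctsb was thus higher on soft in both genotypes and its part in the Fdft1 values was not tested. The rise of Fdft1 in Cav1KO did not pass without the second Cav1KO stiff (0.21), the first Cav1KO soft (0.20) or the second Cav1KO soft library (0.26), nor with quantile normalization (0.14), without the trend or with DESeq2.

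Sqle, the squalene epoxidase and a rate-limiting enzyme of the pathway, was at 105 and 114 CPM in WT cells on stiff and 111 and 116 on soft, against 179 and 197 in Cav1KO cells on stiff and 112 and 103 on soft. Both Cav1KO stiff libraries stood above the other 6, which overlapped. Sqle rose on stiff in Cav1KO by 0.80 (SE 0.08, limma adjusted p = 9.46e-05), with an interaction of -0.86 (SE 0.12, limma adjusted p = 0.00752). Lss, which closes the ring to lanosterol, was at 34.95 and 32.4 CPM in WT cells on stiff and 34.6 and 34.2 on soft, against 36.0 and 34.4 in Cav1KO cells on stiff and 24.0 and 21.7 on soft. Only the Cav1KO soft libraries of Lss stood apart, below the rest. Its log2 change in Cav1KO was 0.60 (SE 0.09, limma adjusted p = 0.000759) and its interaction was -0.64 (SE 0.13, limma adjusted p = 0.0299). The interaction of Sqle did not pass without the second Cav1KO soft library (-0.80), and that of Lss did not pass without any 1 library other than the first Cav1KO stiff library (-0.71 to -0.56).

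Lanosterol is trimmed to cholesterol by the 8 sterol ring enzymes, of which 6 rose on stiff in Cav1KO (27.9% of all genes did) and 4 fell on stiff in WT (26.3% of all genes did). Cyp51, the lanosterol demethylase, was at 91.3 and 95.4 CPM in WT cells on stiff and 111 and 111 on soft, against 111 and 115 in Cav1KO cells on stiff and 66.1 and 66.5 on soft. Its Cav1KO soft libraries were the lowest, with log2 changes of -0.25 (SE 0.07, limma adjusted p = 0.0139) in WT and 0.76 (SE 0.07, limma adjusted p = 4.5e-05) in Cav1KO and an interaction of -1.01 (SE 0.09, limma adjusted p = 0.00254). Msmo1, the oxidase that removes the methyl groups at the sterol ring, was at 69.1 and 86.8 CPM in WT cells on stiff and 98.6 and 102 on soft, against 106 and 129.9 in Cav1KO cells on stiff and 50.1 and 52.2 on soft. It had the largest Cav1KO change of this arm, 1.18 (SE 0.13, limma adjusted p = 0.000111), a WT change of -0.37 (SE 0.13, limma adjusted p = 0.0396) and an interaction of -1.55 (SE 0.18, limma adjusted p = 0.00438). Nsdhl, the dehydrogenase that works with Msmo1, was at 29.0 and 30.8 CPM in WT cells on stiff and 46.4 and 47.4 on soft, against 37.2 and 42.2 in Cav1KO cells on stiff and 27.0 and 28.6 on soft. Its changes were -0.63 (SE 0.09, limma adjusted p = 0.000852) in WT and 0.50 (SE 0.09, limma adjusted p = 0.00221) in Cav1KO, with an interaction of -1.13 (SE 0.13, limma adjusted p = 0.00457). The fall of Cyp51 in WT did not pass without the first WT stiff (-0.22) or first WT soft library (-0.25) or with median centring (-0.21), and that of Msmo1 did not pass without the first WT stiff (-0.21), the first WT soft (-0.39), the second WT soft (-0.34) or either Cav1KO soft library (-0.37), with median centring (-0.33) or without the trend.

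Hsd17b7, the sterol ketoreductase, was at 21.8 and 21.3 CPM in WT cells on stiff and 22.7 and 22.2 on soft, against 26.2 and 28.6 in Cav1KO cells on stiff and 15.3 and 13.7 on soft. WT libraries lay between the 2 Cav1KO groups, with a change of 0.87 in Cav1KO (SE 0.10, limma adjusted p = 0.000174) and an interaction of -0.93 (SE 0.14, limma adjusted p = 0.0122). Sc5d, a desaturase late in the arm, was at 45.3 and 47.9 CPM in WT cells on stiff and 43.9 and 42.0 on soft, against 79.2 and 81.4 in Cav1KO cells on stiff and 46.0 and 46.7 on soft. Its Cav1KO stiff libraries stood alone above the rest, with a change of 0.78 in Cav1KO (SE 0.08, limma adjusted p = 7e-05) and an interaction of -0.66 (SE 0.11, limma adjusted p = 0.0139). Neither interaction passed without the first WT stiff, the first WT soft or either Cav1KO soft library, with values of -1.0003 to -0.86 for Hsd17b7 and -0.68 to -0.62 for Sc5d.

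The other 3 ring enzymes did not pass the interaction. Dhcr7, the last reductase of the arm, was at 25.2 and 24.3 CPM in WT cells on stiff and 25.1 and 26.9 on soft, against 44.1 and 49.8 in Cav1KO cells on stiff and 38.9 and 38.3 on soft. It rose on stiff in Cav1KO by 0.27 (SE 0.09, limma adjusted p = 0.0343), a call that did not pass without the second Cav1KO stiff (0.19), the first Cav1KO soft (0.29) or the second Cav1KO soft library (0.26) or with DESeq2. Ebp, the sterol isomerase, had group means of 58.7 ± 5.29 CPM (SD, n = 2) on stiff and 61.7 ± 1.69 on soft in WT, and 80.6 ± 7.58 on stiff and 75.8 ± 0.62 on soft in Cav1KO, and its substrates overlapped in both genotypes. Tm7sf2, a sterol reductase, had the lowest CPM of the list, from 3.26 and 4.79 in WT stiff and 6.71 and 8.28 in WT soft to 4.94 and 4.71 in Cav1KO stiff and 4.76 and 6.63 in Cav1KO soft. It fell on stiff in WT by 0.77 on the log2 scale (SE 0.20, limma adjusted p = 0.0133), which did not pass without the first WT stiff (-0.55) or second WT soft library (-0.63) or with quantile normalization (-0.54). Vps51, which lies on the same strand, overlapped 12.1% of its exon bases and was higher on soft in both genotypes, with means of 29.8 and 41.9 CPM in WT stiff and WT soft and 41.5 and 54.7 CPM in Cav1KO stiff and Cav1KO soft. The part of Vps51 in the Tm7sf2 values was not tested.

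Among the genes of SREBP control, the 2 Insig genes fell on stiff in WT. Insig1, itself a known SREBP target, was at 37.9 and 45.3 CPM in WT cells on stiff and 72.1 and 60.0 on soft, against 64.3 and 77.4 in Cav1KO cells on stiff and 50.8 and 60.1 on soft. The WT groups did not overlap and the WT stiff libraries were the lowest of all, with a change of -0.66 (SE 0.14, limma adjusted p = 0.00546) and an interaction of -1.003 (SE 0.20, limma adjusted p = 0.0266). Insig2, which is not driven in the same way, was at 42.7 and 53.5 CPM in WT cells on stiff and 95.3 and 81.6 on soft, against 66.4 and 69.6 in Cav1KO cells on stiff and 82.7 and 88.4 on soft. Both genotypes had lower Insig2 on stiff, with changes of -0.87 (SE 0.12, limma adjusted p = 0.000556) in WT and -0.33 (SE 0.12, limma adjusted p = 0.0442) in Cav1KO. The WT call of Insig1 did not pass without the first WT soft library (-0.53), its interaction did not pass without the first WT stiff (-0.88), the first WT soft (-0.87), the second Cav1KO stiff (-0.87), the first Cav1KO soft (-0.88) or the second Cav1KO soft library (-1.12), and the Cav1KO call of Insig2 did not pass without any 1 Cav1KO library (-0.37 to -0.28), with median centring (-0.24), without the trend or with the replicate number as a block (adjusted p = 0.0533).

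Srebf2, the SREBP gene tied to cholesterol, was at 258 and 252 CPM in WT cells on stiff and 269 and 281 on soft, against 392 and 367 in Cav1KO cells on stiff and 314 and 335 on soft. All Cav1KO libraries lay above all WT libraries, and within Cav1KO it rose on stiff by 0.23 (SE 0.07, limma adjusted p = 0.0234). That call did not pass without the first Cav1KO stiff (0.18), the first Cav1KO soft (0.18) or the second Cav1KO soft library (0.27), with quantile normalization (0.10) or without the trend. Srebf1, the SREBP gene tied more to fatty acids, had group means from 73.9 ± 9.02 CPM (SD, n = 2) in Cav1KO stiff to 79.9 ± 5.12 in Cav1KO soft and passed in no comparison. Scap had means from 109 ± 0.83 CPM (SD, n = 2) in WT soft to 127 ± 0.27 in Cav1KO stiff and also passed in none. Thus the RNA of Scap and Srebf1 stayed within narrow ranges across groups in which Idi1 ranged from 50.2 to 162 CPM.

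For lysosomal exit and export the calls had the same sign in both genotypes, and 2123 of all 12494 genes tested likewise fell in both. Npc2, the soluble lysosomal sterol carrier, was at 275 and 315 CPM in WT cells on stiff and 908 and 726 on soft, against 338 and 370.5 in Cav1KO cells on stiff and 986 and 1019.7 on soft. All soft libraries lay above all stiff libraries, with changes of -1.46 (SE 0.12, limma adjusted p = 6.22e-05) in WT and -1.50 (SE 0.12, limma adjusted p = 2.81e-05) in Cav1KO. Npc1, the membrane protein that receives sterol from Npc2, was at 49.2 and 42.5 CPM in WT cells on stiff and 67.2 and 61.4 on soft, against 39.6 and 36.6 in Cav1KO cells on stiff and 64.6 and 59.2 on soft. Its changes were -0.48 (SE 0.10, limma adjusted p = 0.00475) in WT and -0.69 (SE 0.10, limma adjusted p = 0.000596) in Cav1KO. Abca1, the exporter of cholesterol to lipoprotein acceptors, was at 7.28 and 6.21 CPM in WT cells on stiff and 22.7 and 13.2 on soft, against 13.9 and 10.6 in Cav1KO cells on stiff and 36.5 and 29.5 on soft. It fell on stiff in both genotypes, by 1.25 (SE 0.24, limma adjusted p = 0.00316) in WT and by 1.36 (SE 0.24, limma adjusted p = 0.00155) in Cav1KO on the log2 scale. The interaction did not pass for these genes, which does not show that the responses to substrate were equal.

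Stard4, a cytosolic sterol carrier and known SREBP target, moved in Cav1KO in the direction of the enzymes of synthesis. It was at 74.1 and 78.6 CPM in WT cells on stiff and 78.4 and 75.1 on soft, against 69.3 and 74.7 in Cav1KO cells on stiff and 37.2 and 34.7 on soft. Both Cav1KO soft libraries were below the other 6, with a change of 0.98 in Cav1KO (SE 0.08, limma adjusted p = 3.48e-05) and an interaction of -0.99 (SE 0.12, limma adjusted p = 0.0045). Scarb1, the HDL receptor, was at 129.9 and 129 CPM in WT cells on stiff and 139 and 133 on soft, against 136 and 138 in Cav1KO cells on stiff and 99.96 and 101 on soft, and again the Cav1KO soft libraries stood below the rest. Its change in Cav1KO was 0.45 (SE 0.06, limma adjusted p = 0.000489) and its interaction was -0.52 (SE 0.09, limma adjusted p = 0.0178). Soat1, which esterifies cholesterol for storage, ranged only from 250.3 to 335 CPM over the 8 libraries, with a change of 0.18 in Cav1KO (SE 0.07, limma adjusted p = 0.0498). The interaction of Scarb1 did not pass without the first WT stiff (-0.53), the first WT soft (-0.49), the first Cav1KO soft (-0.51) or the second Cav1KO soft library (-0.52), and the Cav1KO call of Soat1 did not pass without any 1 library other than the first Cav1KO stiff (0.14 to 0.19), with quantile normalization (0.04), without the trend, with edgeR or with DESeq2.

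**Figure D3:**
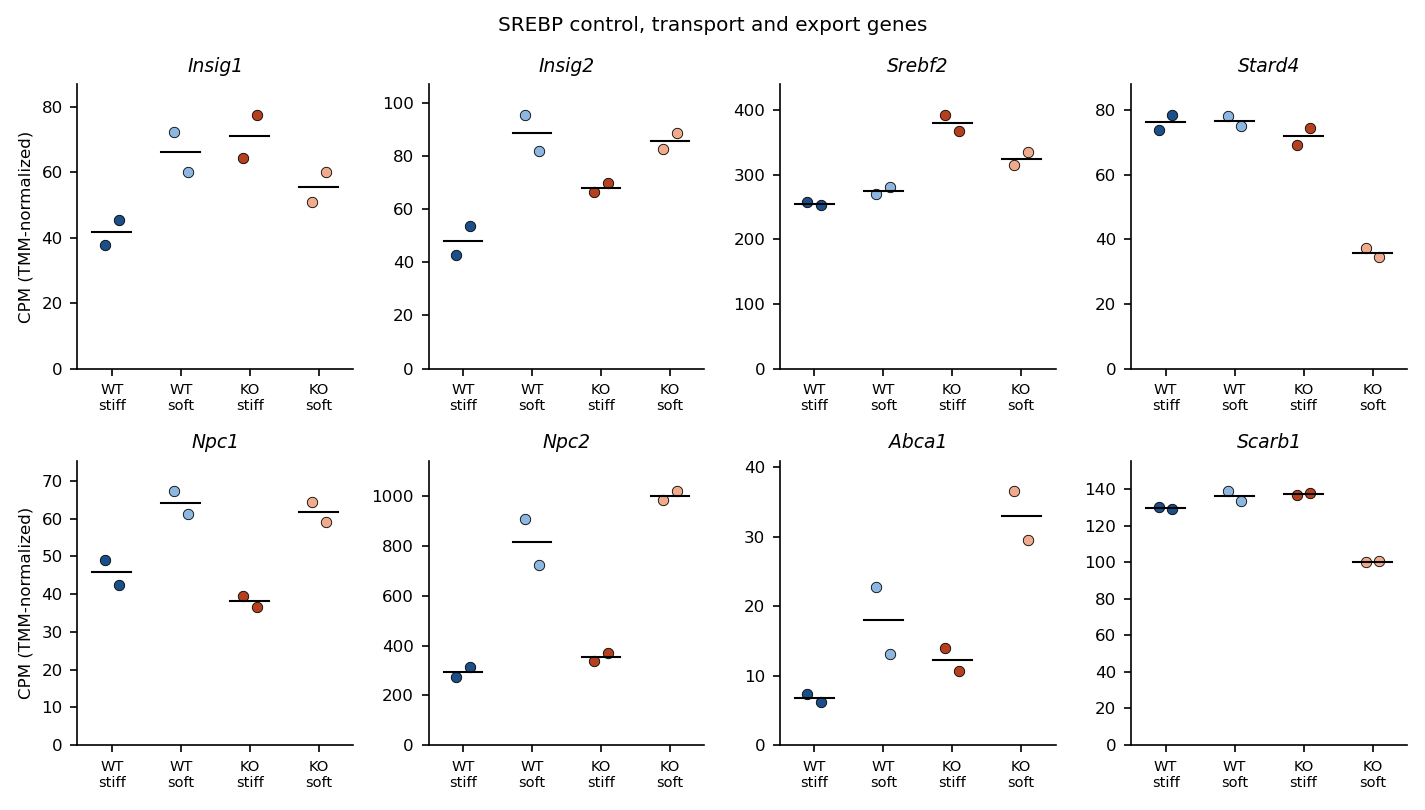
CPM (y axis, linear from 0) of 8 genes of SREBP control, transport and export in the 2 libraries of each group (points) with their mean (line). Npc2 and Abca1 are lower on stiff in both genotypes, and Stard4 and Scarb1 are lowest in Cav1KO soft.

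The 2 genotypes were also compared on each substrate, and these comparisons use the same libraries as the ones above. On stiff substrate 18 of 30 members were higher in Cav1KO than in WT and 2 were lower, against 25.0% and 26.6% of all genes, with a member median of 0.31. On soft substrate 5 were higher and 14 were lower, against 24.1% and 29.9%, with a median of -0.27. Of the synthesis enzymes, 14 were higher and 1 (Ggps1) was lower in Cav1KO on stiff, and 3 were higher and 11 lower on soft. The count of 18 was 10 without the first WT stiff library. The count of 5 was 3 without the second WT soft, 2 without the first Cav1KO soft and 3 without the second Cav1KO soft library, and that of 2 was 1 without any 1 library other than the second WT stiff and second Cav1KO stiff libraries.

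Mvd had the largest difference between genotypes on stiff, being higher in Cav1KO by 1.79 (SE 0.11, limma adjusted p = 3.57e-06) on stiff and by 0.79 (SE 0.11, limma adjusted p = 0.000375) on soft. Dhcr7 was likewise higher in Cav1KO on both, by 0.90 (SE 0.09, limma adjusted p = 8.61e-05) and 0.55 (SE 0.09, limma adjusted p = 0.00124). Srebf2 was higher by 0.57 (SE 0.07, limma adjusted p = 0.00022) and 0.24 (SE 0.07, limma adjusted p = 0.0195), and Ebp by 0.45 and 0.29. Ggps1 was lower in Cav1KO on both substrates, with changes of -0.57 (SE 0.11, limma adjusted p = 0.0033) and -0.72 (SE 0.11, limma adjusted p = 0.000852). The soft calls of Ebp did not pass without either WT soft (0.27 and 0.32) or either Cav1KO soft library (0.28 and 0.30) or without the trend, and those of Srebf2 did not pass without the first WT soft (0.21), the first Cav1KO soft (0.28) or the second Cav1KO soft library (0.19) or without the trend.

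Idi1 was higher in Cav1KO on stiff (1.07, SE 0.11, limma adjusted p = 6.63e-05) and lower on soft (-1.01, SE 0.11, limma adjusted p = 8.92e-05). Msmo1 (0.59 and -0.96), Nsdhl (0.39 and -0.74), Fdft1 (0.30 and -0.60), Cyp51 (0.27 and -0.74), Hsd17b7 (0.33 and -0.60) and Hmgcs1 (0.22 and -0.56) also had calls of opposite sign on stiff and soft substrate. The stiff calls of Fdft1 (0.25), Cyp51 (0.24) and Nsdhl (0.35) did not pass without the first WT stiff library. Those of Hmgcs1 (0.21 to 0.23) and Hsd17b7 (0.27 to 0.35) did not pass without either WT stiff or the second Cav1KO stiff library, nor with DESeq2, and that of Hmgcs1 did not pass without the trend. With a call on stiff and none on soft, Acat2 (0.60), Sqle (0.78), Sc5d (0.77), Insig1 (0.76), Insig2 (0.50) and Mvk (0.34) were higher in Cav1KO, with Insig2 at 0.34 and Mvk at 0.21 and no longer passing without the first WT stiff library and Mvk at 0.31 and not passing without the second Cav1KO stiff library.

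Fdps showed the largest decrease with genotype on soft, -1.32 (SE 0.11, limma adjusted p = 2.05e-05), followed by Stard4 at -1.07 (SE 0.08, limma adjusted p = 1.22e-05). Pmvk (-0.82), Lss (-0.57) and Scarb1 (-0.44) were also lower in Cav1KO on soft, with no call on stiff. Abca1 was higher in Cav1KO on stiff (0.77, SE 0.24, limma adjusted p = 0.0262) and soft (0.88, SE 0.24, limma adjusted p = 0.0138), and Soat1 was lower on both (-0.18 and -0.29). Abca1 did not pass on stiff without the first WT stiff (0.87), second WT stiff (0.67) or first Cav1KO stiff library (0.59), nor on soft without the second WT soft (0.51) or first Cav1KO soft library (0.73). Soat1 did not pass on stiff without any 1 library other than the second Cav1KO stiff (-0.23 to -0.14), with median centring (-0.13), without the trend, with edgeR or with DESeq2, nor on soft without the second Cav1KO soft library (-0.28).

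Markers of other cell types also differed with genotype. The summed macrophage markers were 24.9 to 40.4 CPM in WT and 92.8 to 103.6 CPM in Cav1KO libraries, carried by Cd14, of the 2 of 7 markers analysed, whereas Cd68 was at 4.55 CPM or less. The adipocyte markers analysed, Fabp4 and Pparg, summed to 6.95 to 8.82 CPM in WT and 102 to 159 in Cav1KO, with Fabp4 higher and Pparg lower in Cav1KO. In bulk RNA a change in the share of a cell type and a change of RNA per cell cannot be told apart, and the part of these markers in the genotype results was not tested.

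**Figure D4:**
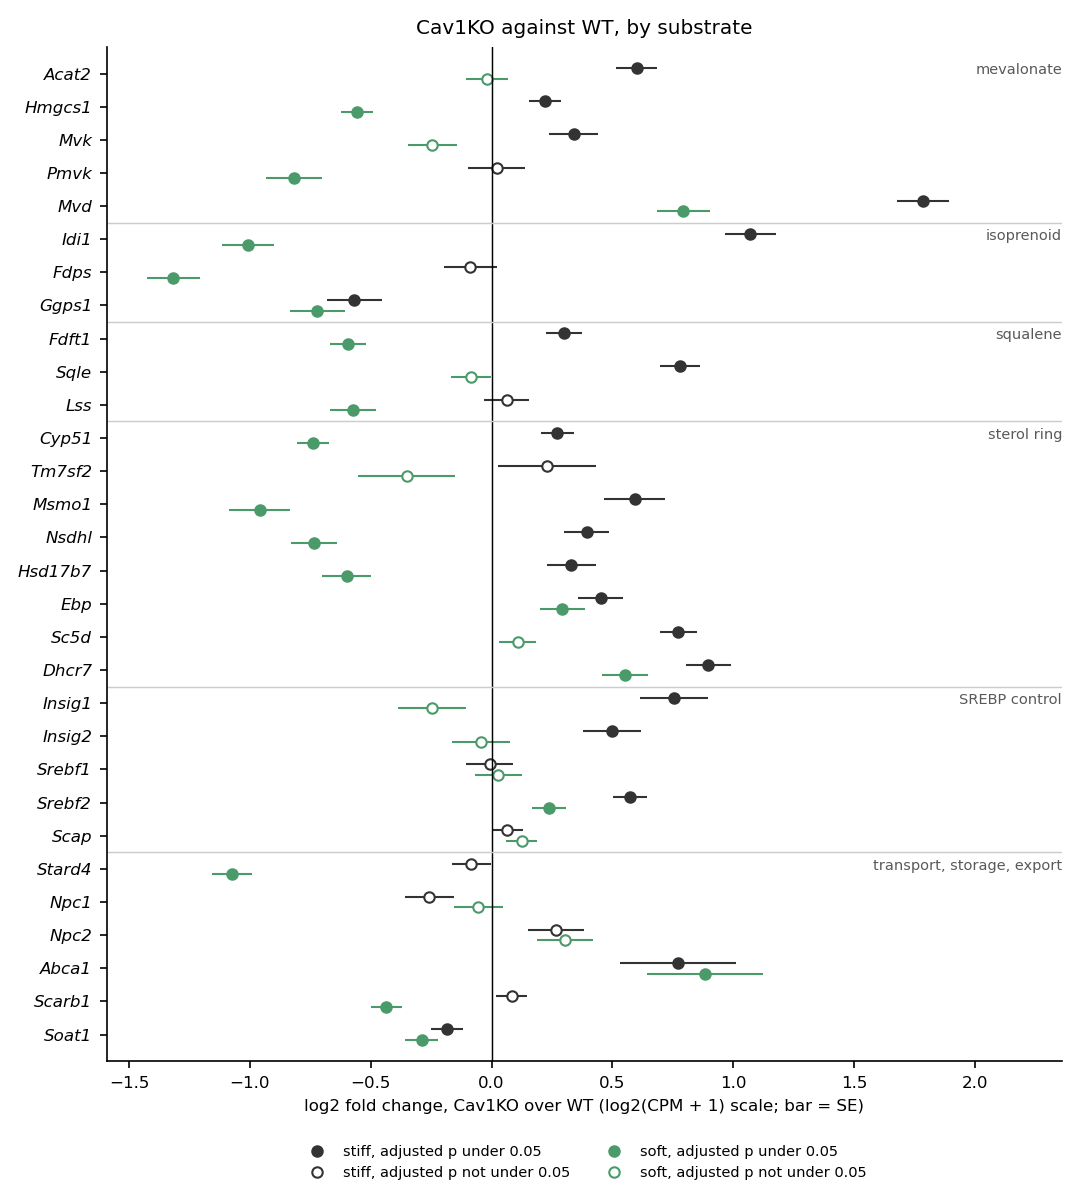
Log2 fold change of Cav1KO over WT (x axis, log2(CPM + 1) scale) for each of the 30 members (y axis, in pathway order) on stiff (black) and soft (green) substrate. Bars are standard errors of the fit over 8 libraries, and filled points passed an adjusted p of 0.05. Idi1 lies at 1.07 on stiff and -1.01 on soft, and Mvd lies right of 0 on both.

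Levels were compared between genes only per length of transcript. On that scale, CPM per kilobase of the median basic protein-coding transcript, the synthesis enzymes spanned from 2.98 for Tm7sf2 to 70.2 for Fdps in WT stiff and from 4.22 for Tm7sf2 to 48.7 for Acat2 in Cav1KO soft. Fdps had the highest level in both WT groups (70.2 in stiff and 87.0 in soft), and Acat2 in both Cav1KO groups (82.8 in stiff and 48.7 in soft). Sqle was at 69.7 in Cav1KO stiff and at 39.9 to 42.3 in the other groups. Mvd was at 5.34 in WT stiff and 7.67 in WT soft, and at 19.8 in Cav1KO stiff and 13.7 in Cav1KO soft. Outside synthesis, Npc2 ranged from 89.4 in WT stiff to 304 in Cav1KO soft and Abca1 from 0.658 to 3.21. These levels carry no test, since mappable length differs between genes.

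**Figure D5:**
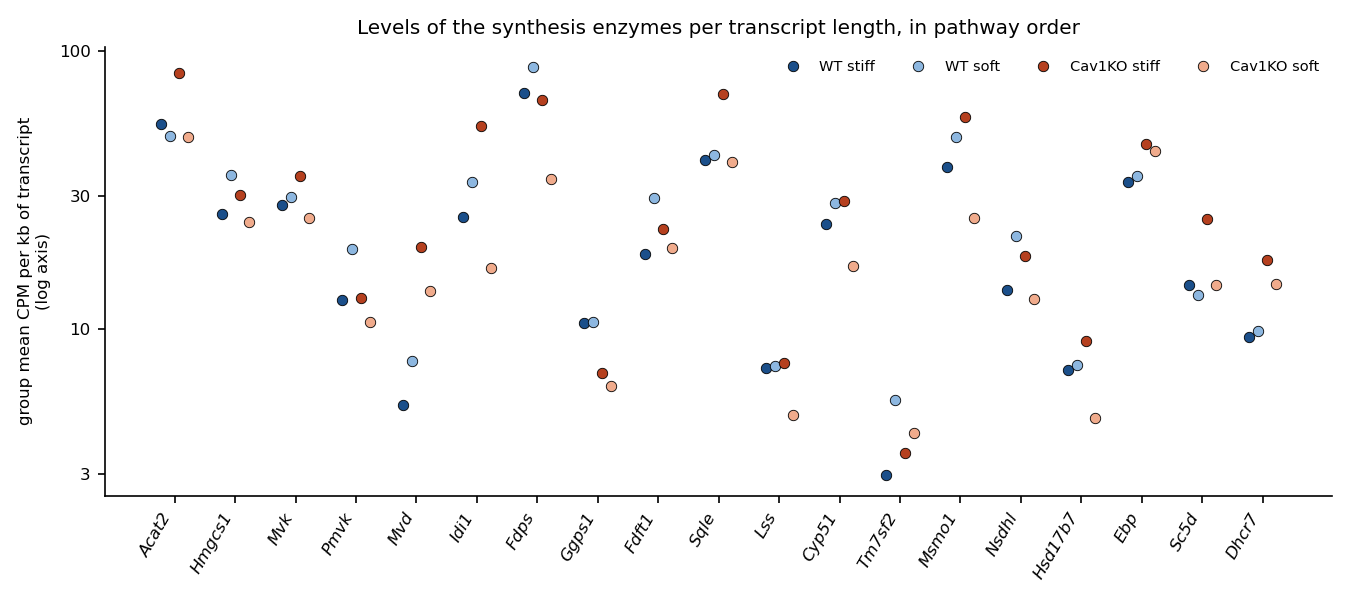
Group mean CPM per kilobase of transcript (y axis, log scale) for the 19 synthesis enzymes in pathway order (x axis), 1 point per group. Fdps and Acat2 lie at the top, Tm7sf2 at the bottom, and the Cav1KO soft points lie lowest for 13 enzymes.

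All 30 members are annotated as protein-coding genes on GRCm38 (GENCODE M21). The 8 enzymes with opposite calls lie on 6 chromosomes: Idi1 at 8885501 to 8892451 and Hmgcs1 at 119690379 to 119708260 on chromosome 13, Msmo1 at 64718139 to 64733792 and Mvd at 122433601 to 122443422 on chromosome 8, Fdps at 89093588 to 89101959 on chromosome 3, Cyp51 at 4081145 to 4104746 on chromosome 5, Fdft1 at 63145150 to 63179578 on chromosome 14, and Nsdhl at 72918557 to 72958514 on chromosome X. Their identifiers are ENSMUSG00000093930 (Hmgcs1), ENSMUSG00000006517 (Mvd), ENSMUSG00000058258 (Idi1), ENSMUSG00000059743 (Fdps), ENSMUSG00000021273 (Fdft1), ENSMUSG00000001467 (Cyp51), ENSMUSG00000031604 (Msmo1) and ENSMUSG00000031349 (Nsdhl). The share of 60-base windows found in other annotated genes was 25.0% for Fdps, 24.6% for Idi1, 24.3% for Fdft1, 10.8% for Hmgcs1, 2.41% for Cyp51 and 0.286% for Msmo1, and Mvd and Nsdhl shared none.

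Other genes around the pathway were described from lists written for this work, by their counts. For comparison, 22.1% of all genes tested rose on stiff and 26.3% fell in WT, and 27.9% rose and 28.2% fell in Cav1KO. The interaction passed upward for 4.47% and downward for 6.0% of all genes, with a median of -0.07. Of 9 genes of SREBP processing and sterol sensing, 2 rose and 0 fell on stiff in WT, and 5 rose and 1 fell (Mbtps1) in Cav1KO. Erlin1 rose in both genotypes (by 0.55 in WT and 0.69 in Cav1KO). In this list 0 genes passed the interaction in either direction, with a median interaction of -0.20. Of 13 genes that use isoprenoids, 5 rose and 0 fell in WT, and 7 rose and 1 fell (Chm) in Cav1KO. In that list too 0 passed the interaction, with a median of -0.19. Lists of 9 and 13 genes are too short for 0 calls to set them apart from all genes. Pdss1, which builds the tail of ubiquinone, rose in both, by 1.15 (SE 0.10, limma adjusted p = 9.6e-05) in WT and 1.36 (SE 0.10, limma adjusted p = 2.73e-05) in Cav1KO. Icmt, the methyltransferase of prenylated proteins, rose by 0.37 in WT and 0.55 in Cav1KO. Pdss1 and Icmt were thus higher on stiff in both genotypes, whereas Idi1 and Fdps, which supply isoprene units, had opposite calls.

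The lists of lysosomal and lipoprotein handling held more genes that fell on stiff than genes that rose in both genotypes. Over all genes tested 26.3% fell and 22.1% rose in WT, and 28.2% fell and 27.9% rose in Cav1KO. The interaction passed upward for 4.47% of all genes and downward for 6.0%. Of 14 genes analysed from 17 for LXR, oxysterol and lipoprotein handling, 1 rose and 8 fell in WT and 1 rose and 10 fell in Cav1KO, with medians of -0.38 and -0.47. Lipa, the lysosomal cholesteryl ester hydrolase, fell by 1.65 (SE 0.12, limma adjusted p = 4.45e-05) in WT and by 1.33 (SE 0.12, limma adjusted p = 4.44e-05) in Cav1KO on the log2 scale. Mylip, a ligase induced by LXR that degrades lipoprotein receptors, fell by 1.37 and 1.41, and Vldlr fell by 1.42 and 1.05. Lrp8, another lipoprotein receptor, was the gene that rose, by 1.18 in WT and 1.60 in Cav1KO. In the interaction 2 genes passed upward, Lrp1 and Ch25h, and 0 downward. Ch25h, the cholesterol 25-hydroxylase, was at 0.215 CPM or less in WT libraries, and its interaction turned from 1.13 to -0.39 with edgeR and -0.51 with DESeq2 on the recovered reads. Of 15 genes analysed from 16 for intracellular sterol transport, 1 rose and 8 fell in WT and 2 rose and 8 fell in Cav1KO, among them the lysosomal membrane genes Lamp1 (-0.70 and -0.86) and Lamp2 (-1.33 and -1.37). Only Stard5 passed the interaction in that list, downward. The interaction calls of Lrp1 and Stard5 were lost without the first WT stiff, the first WT soft or either Cav1KO soft library, with values of 1.51 to 1.63 and of -1.07 to -0.87. Npc1, Npc2 and Abca1 therefore moved in the direction of most genes in these lists.

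Fatty acid synthesis, which SREBP factors also serve, was the nearest comparison. Of its 14 genes, 7 rose and 3 fell on stiff in WT, and 8 rose and 1 fell in Cav1KO. Of all genes, 22.1% rose and 26.3% fell in WT, and 27.9% rose and 28.2% fell in Cav1KO. The interaction passed upward for 1 of the 14 (Gpam) and downward for 3 (Scd1, Scd2 and Me1), against 4.47% and 6.0% of all genes. The median interaction was -0.07 both over the 14 and over all genes. All 4 of these interaction calls were lost without the first WT stiff, the first WT soft or either Cav1KO soft library, with values of 0.63 to 0.75 for Gpam, -0.46 to -0.44 for Scd1, -0.59 to -0.53 for Scd2 and -0.39 to -0.36 for Me1. Those of Gpam (0.74), Scd1 (-0.45) and Scd2 (-0.51) were lost without the second WT soft library too, and that of Gpam without the second Cav1KO stiff library (0.66). The call of Scd1 was also lost without the trend, and that of Me1 without any other single library (-0.43 to -0.32), with a pseudocount of 0.5, quantile normalization, edgeR, DESeq2 or the replicate block, and without the trend. Fasn, fatty acid synthase, rose on stiff in both, by 1.01 (SE 0.14, limma adjusted p = 0.000562) in WT and 0.70 (SE 0.14, limma adjusted p = 0.00285) in Cav1KO. Lpin1, a phosphatidate phosphatase, fell in both, by 1.48 and 1.73 on the log2 scale. By genotype, 4 of the 14 were higher and 6 lower in Cav1KO on stiff, and 4 higher and 5 lower on soft, against 25.0% of all genes higher and 26.6% lower on stiff and 24.1% higher and 29.9% lower on soft. The counts of the 2 pathways are side by side and the difference between them was not tested.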

How the data were processed

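RNA was sequenced from 8 MEF libraries, 2 in each of 4 groups. The submitters' processing notes name CASAVA 1.8.2, cutadapt, RSEM 1.2.3 and build GRCm38, with 60-base single reads from poly(A) RNA and a kit that does not mark strand. The authors deposited a signal per gene, CPM scaled by TMM. All values were whole multiples of 1 read, which gave back whole read counts. The tolerance was 0.001 of a read, or 1e-05 of the count where that was larger. The 12494 of 12528 genes that reached 1 CPM in 2 or more libraries were tested on log2(CPM + 1) with limma 3.58.1 in R 4.3.3, all 8 libraries in 1 fit with a mean-variance trend and 4 residual degrees of freedom. A log2 change on this scale understates that of low genes. P-values were two-sided and adjusted by Benjamini-Hochberg over all genes tested, with a threshold of 0.05. The members and lists were chosen with earlier results of these data known. All members are named, with changes printed where they passed, and genes of other lists were named only where they passed. Identifiers of 12451 genes (99.39%) matched GENCODE M21. Alternatives were pseudocounts of 0.5 and 5, no filter, median centring, quantile normalization, no trend, edgeR 4.0.16 and DESeq2 1.42.0 on the recovered reads, replicate blocks, and each library left out. Where a library was left out, the lone library of that group was assumed to vary like the other groups.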

Additional observations from a re-analysis of the deposited data

Results flagged for a closer look

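For 18 members the response to substrate differed between the genotypes by the direct test of the difference. The differences, given as the log2 change of stiff over soft in WT minus that in Cav1KO, were Idi1 (-2.08), Msmo1 (-1.55), Fdps (-1.23), Nsdhl (-1.13), Cyp51 (-1.01), Insig1 (-1.003), Mvd (-0.99), Stard4 (-0.99), Hsd17b7 (-0.93), Fdft1 (-0.89), Sqle (-0.86), Pmvk (-0.84), Hmgcs1 (-0.78), Sc5d (-0.66), Lss (-0.64), Acat2 (-0.62), Mvk (-0.59) and Scarb1 (-0.52). All 18 were negative, so that the change with stiffness was lower in WT than in Cav1KO. For 8 of them the calls in the genotypes were of opposite sign, and 8 of the 18 (Hmgcs1, Idi1, Fdps, Fdft1, Cyp51, Msmo1, Nsdhl and Stard4) passed in every alternative. The group of 2 libraries is too small to test single libraries for standing apart.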

How the results depend on the processing

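Of 95 member calls over the 5 comparisons, 61 kept direction and significance in every alternative, 34 were lost in at least 1, and 0 reversed. Of the other genes named, Ch25h turned direction in the interaction, from 1.13 to -0.39 with edgeR and -0.51 with DESeq2, which test reads in place of log2(CPM + 1). Without a trend 12 calls were lost, with DESeq2 7, median centring 5, quantile normalization 4, edgeR 2, and with both pseudocounts or without the filter 0. Requiring at least a 2-fold change left 2 members lower in WT, 2 higher and 2 lower in Cav1KO, and 6 lower in the interaction. For genotype it left 2 higher and 0 lower on stiff, and 0 higher and 3 lower on soft. All genes were not counted at this threshold, so whether these counts are many or few was not tested. Members lower in Cav1KO on stiff numbered 1 with median centring, no trend, edgeR or DESeq2 in place of 2, and those higher on soft numbered 3 without the trend in place of 5. Members with opposite calls numbered 5 without the trend in place of 8. The cause of these moves was not tested.

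Leaving out 1 library gave 8 to 18 members lower in the interaction, 10 to 19 higher and 1 to 2 lower for genotype on stiff, 2 to 6 higher and 13 to 15 lower for genotype on soft, and 4 to 9 with opposite calls. It gave 10 to 15 lower in WT, and 15 to 19 higher and 3 to 4 lower in Cav1KO. The most calls were lost without the first WT stiff library (23), the second Cav1KO soft (21) and the first Cav1KO soft library (20).

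The labels number the libraries 1 and 2 in each group without tying a number to a day or batch. The deviations of same-numbered libraries correlated between groups from -0.367 (WT stiff and WT soft) to 0.415 (WT stiff and Cav1KO stiff). Whether libraries of different groups shared a day or batch was not tested. With the replicate number as a block, 3 members were lower in Cav1KO and 3 were lower for genotype on stiff, and 1 call was lost, that of Insig2 in Cav1KO (adjusted p = 0.0533). Crossed numbers, a block chosen after seeing the data, gave 20 members lower in the interaction, 20 higher in Cav1KO, 19 higher and 3 lower for genotype on stiff, 6 higher and 16 lower for genotype on soft, and 9 with opposite calls.

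Over all genes the interaction passed upward for 559 and downward for 750, against 314 and 391 without the trend, 361 and 541 with edgeR, 781 and 719 with DESeq2 over 10556 genes, 1675 and 1978 with the crossed block, 36 and 74 without the first Cav1KO soft library and 1747 and 1689 without the first Cav1KO stiff library. Median centring moved the median interaction of all genes from -0.07 to -0.11.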
